A study of Mus musculus with 8 samples.

Results

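Transcript levels of 8 enzymes that make and interconvert asparagine, proline, glutamate, glutamine, aspartate and alanine were examined in mouse plasmablasts with and without Jagn1. The 8 genes, Asns, Aldh18a1, Pycr1, Gpt2, Glul, Got1, Got2 and Glud1, were taken by symbol as enzymes of non-essential amino acid synthesis other than that of serine and cysteine, from the 24413 symbols in the count files. All 8 were present and all 8 passed the filter on low counts, as did 9904 genes in all. The cells came from C57BL/6J mice. Splenic B220+ B cells were kept for 4 days in medium supplemented with glutamine and holding LPS (lipopolysaccharide of bacteria, which makes B cells proliferate and turn into antibody secretors) at 25 µg/ml, and CD22-CD138+ plasmablasts were then sorted. The knockout group was Jagn1fl/fl Mb1Cre+ (4 libraries) and the control group Jagn1fl/fl (4 libraries). The floxed alleles, the strain and the LPS were therefore common to both groups. Mb1-Cre is expressed from the B cell gene Cd79a, and no Cre is listed for the controls, so the loss of Jagn1, a membrane protein gene of the endoplasmic reticulum, and the presence of Cre cannot be told apart. The labels state 4 mice per genotype, and no age is given in the labels.

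These enzymes share glutamate as their common currency. Glutamate dehydrogenase (Glud1) links glutamate to the citric acid cycle, and glutamine synthetase (Glul) fixes ammonia onto glutamate to give glutamine. Aminotransferases (Gpt2 for alanine, Got1 and Got2 for aspartate) pass its amino group to other carbon skeletons, asparagine synthetase (Asns) moves the amide of glutamine onto aspartate, and Aldh18a1 and Pycr1 reduce glutamate to proline. Asns is a textbook target of ATF4, the transcription factor that cells make when the kinases PERK or GCN2 sense stress in the endoplasmic reticulum or a shortage of amino acids. Antibody-secreting cells draw heavily on amino acids for immunoglobulin synthesis.

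The library totals ran from 5882912 to 10066661 counts, and a floor of 3 counts corresponded to 0.292 to 0.483 CPM (counts per 1000000, here scaled to totals adjusted by edgeR's TMM factors). Jagn1 gave 16 to 99 counts in the control libraries and 1 or 2 counts in each knockout library. Plasmablast genes marked every library. The 9 listed markers in the files summed to 27378 to 34486 CPM in control libraries and 21215 to 27254 CPM in knockout libraries. Most of each sum was Mzb1, with 19655 to 21996 CPM in control libraries and 15255 to 22220 CPM in knockout libraries. At an adjusted p under 0.05 (edgeR), 5 of the 9 were lower in the knockout: Sdc1, Slamf7, Cd93, Tnfrsf17 and Jchain. Over all genes tested, 3.19% were called lower. Markers of mature B cells summed to 883 to 1141 CPM in control libraries and 829 to 939 CPM in knockout libraries. Beside that share of 3.19%, 1 of 7 tested was lower, Cd79a (log2 fold change -1.04, edgeR adjusted p = 0.00313), the locus of Mb1-Cre. T cell markers summed to 30.4 to 39.0 CPM in control libraries and 20.01 to 29.5 CPM in knockout libraries. Myeloid, NK and erythroid markers each summed to at most 6.32 CPM per list in any library, with Lyz2, Cd14, S100a8, S100a9, Mpo, Elane, Ncr1, Gzma, Alas2 and the 5 globin genes at 0 counts in all libraries. The part of the plasmablast and T cell markers in the results below was not tested. In such bulk samples fewer cells of a type and less RNA per cell cannot be told apart. Control replicates 1 and 4 stood apart, deviating from their group mean by 0.594 and 0.581 (root mean square over the genes tested, in log2 units), against 0.324 to 0.432 in the other 6 libraries.

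Windows from 250 bases before to 50 bases after the annotated start (RefSeq, GRCm38.p6) were searched for the letters TGATGNAA on both strands, the core of the C/EBP-ATF response element to which ATF4 dimers bind. All 8 genes had 1 window each, and 3 of the 8 held 1 match, in Asns, Pycr1 and Got1, against 3.97% of all 32851 windows of the table and 2.35% of the 9694 windows of the genes tested. The stricter letters TTGCATCA, which are 1 of the forms of that motif read on the other strand, were found in Pycr1 and Got1, against 0.895% of all windows. The stretches of the 3 genes with a match are shown, together with that of Gpt2, which held no match. Each is written 5′ to 3′ on the strand of its gene, with the match in capitals.
Asns, chr6:7693214-7693243, minus strand: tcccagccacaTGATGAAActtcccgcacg
Pycr1, chr11:120643833-120643862, minus strand: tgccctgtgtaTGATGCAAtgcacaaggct
Got1, chr19:43524606-43524725, minus strand: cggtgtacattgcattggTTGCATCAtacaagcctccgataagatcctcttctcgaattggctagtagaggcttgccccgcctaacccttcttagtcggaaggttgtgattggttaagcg
Gpt2, chr8:85492456-85492575, plus strand: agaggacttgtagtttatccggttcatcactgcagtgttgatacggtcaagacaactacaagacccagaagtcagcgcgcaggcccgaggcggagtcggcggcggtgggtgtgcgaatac
The match began 23 bases before the RefSeq start in Asns, 103 bases before it in Pycr1 and 102 bases before it in Got1. GENCODE M21 places the first exon of Asns further upstream, so that its match lies within an annotated Asns exon. No match in the Gpt2 window says only that these letters are not in it.

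In knockout plasmablasts the levels were higher for the asparagine and alanine enzymes and for cytosolic aspartate aminotransferase. Of the 8 genes, Asns, Gpt2 and Got1 rose and none fell at an adjusted p under 0.05 (edgeR's quasi-likelihood test, adjusted over all 9904 genes), where 2.54% of all genes tested were called higher and 3.19% lower. All 4 knockout libraries lay above all 4 control libraries for these 3 genes and below them for Glul, arrangements found in 6.45% and 6.64% of all genes tested. The median log2 fold change of the 8 was 0.46, with 7 values above 0, beside a median of -0.01 over all genes tested. The 8 genes were themselves chosen with earlier results of these data known, so they are not an independently picked list. The count of members called higher was 4 without control replicate 1, with the addition of Aldh18a1, where 372 of 10098 genes were called higher. It was 2, with the loss of Got1, when control replicate 2, control replicate 3 or any single knockout library was left out. The genes called higher were 174 of 10084 without control replicate 2 and 137 of 10126 without knockout replicate 2. The member count stayed at 3 without control replicate 4, where 411 of 10046 genes were called higher. Without control replicates 1 and 4, an alternative chosen with earlier results of these data known, it was 4, where 4.26% of genes were called higher and 4.5% lower. The count of members called lower was 0 in edgeR. It was 1 (Glul) at an unadjusted p under 0.05, in DESeq2 and in limma-voom, where 9.72%, 5.15% and 5.89% of all genes tested were lower.

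**Figure D1:**
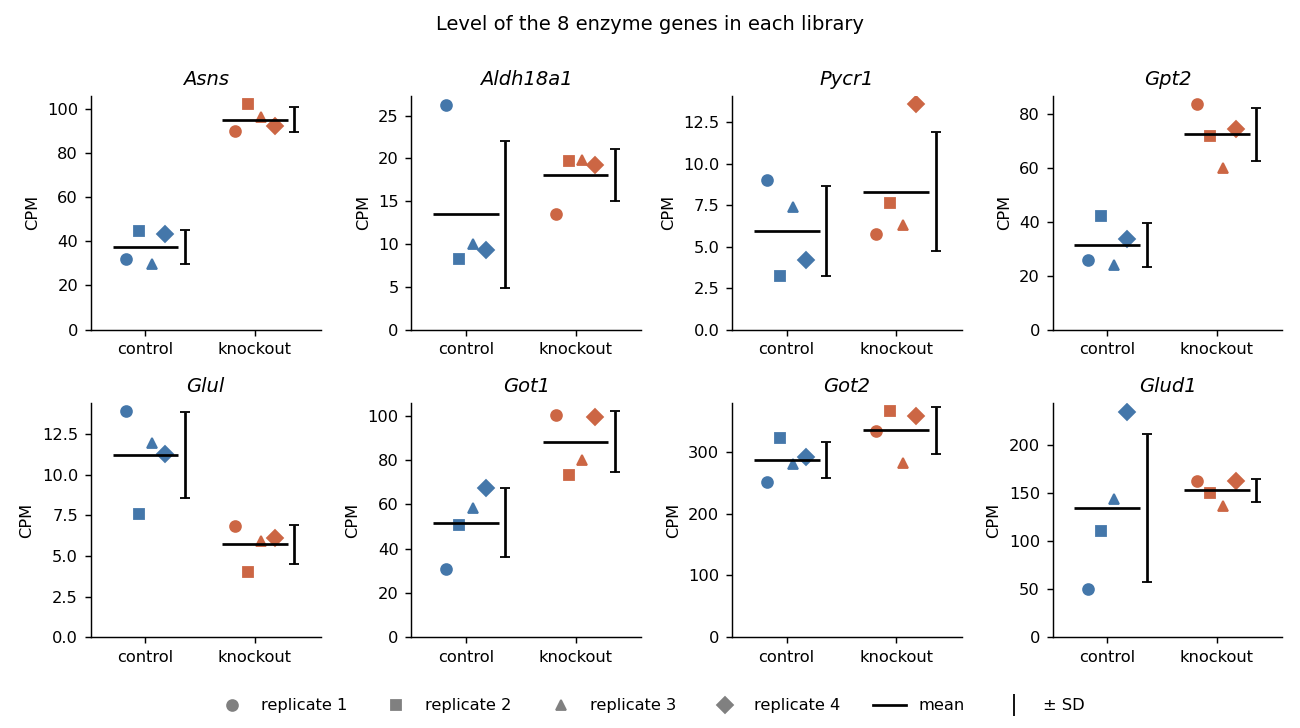
Level of each of the 8 enzyme genes in each library, in CPM on an axis from 0, for control (blue) and knockout (orange). Each symbol is 1 library and its shape gives the replicate number, the horizontal line is the group mean and the bar beside it ± SD (n = 4). Asns, Gpt2 and Got1 show no overlap with the knockout above, Glul none with the knockout below, and the other 4 genes overlap.

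Asns, which makes asparagine from aspartate and glutamine, had the largest log2 fold change of the 8. The gene (ENSMUSG00000029752) lies on chromosome 6 from 7675169 to 7693254 on the minus strand and has 12 exons in its longest coding transcript (GRCm38, the mm10 build, GENCODE M21). Its level was 32.2, 44.8, 29.7 and 43.3 CPM in control replicates 1 to 4, and 90.0, 102, 96.3 and 92.1 CPM in knockout replicates 1 to 4. The lowest knockout library thus stood well above the highest control library. The group mean of Asns rose from 37.5 ± 7.68 to 95.2 ± 5.47 CPM (SD, n = 4 each), or by a log2 fold change of 1.34 ± 0.17 (SE, edgeR adjusted p = 0.000228). The call held under all 18 alternatives, with log2 fold changes of 1.25 to 1.44 and adjusted p up to 0.00215. Between knockout libraries the coefficient of variation of Asns was 5.74%, against a median of 17.5% over all genes tested.

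Gpt2 encodes the mitochondrial alanine aminotransferase, which makes alanine from pyruvate and glutamate. It lies on chromosome 8, plus strand, at 85492576 to 85527560, with 12 exons. Its level was 25.8, 42.1, 24.0 and 33.4 CPM in control libraries and 83.6, 71.9, 59.8 and 74.3 CPM in knockout libraries, in the order of the replicates. Every knockout library was higher than every control library, and knockout replicate 3 was the lowest of its group. The mean rose from 31.3 ± 8.24 to 72.4 ± 9.81 CPM (SD, n = 4 each), or by a log2 fold change of 1.21 ± 0.20 (SE, edgeR adjusted p = 0.00155), and this call too held under all 18 alternatives (1.10 to 1.38, adjusted p up to 0.0113). Its cytosolic counterpart Gpt was scarce, with 28, 3, 5 and 0 counts in the control libraries and 21, 17, 10 and 14 counts in the knockout libraries. The log2 ratio of Gpt2 to Gpt counts within a library, with 0.5 added to each count, was 5.83 ± 2.81 in the control and 5.14 ± 0.34 in the knockout (SD, n = 4 each). The difference of -0.69 had a 95% interval of -4.59 to 2.74 (exact two-sided permutation p = 0.657, adjusted p = 0.657 over 5 pairs of genes) and turned to 0.51 without control replicate 4, the library with 0 Gpt counts. A change in the balance of the alanine aminotransferases was therefore not detectable with Gpt counts this low and this uneven between the control libraries.

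Got1 and Got2 encode the cytosolic and the mitochondrial aspartate aminotransferase, which interconvert aspartate and glutamate on either side of the mitochondrial inner membrane and form part of the malate-aspartate shuttle. Got1 lies on chromosome 19 from 43499752 to 43524605 and Got2 on chromosome 8 from 95864134 to 95888547, both on the minus strand, with 9 and 10 exons. Got1 was at 30.6, 50.8, 58.5 and 67.1 CPM in control replicates 1 to 4 and at 100, 73.0, 80.1 and 99.3 CPM in knockout replicates 1 to 4. The groups did not overlap, but control replicate 4 and knockout replicate 2 were close. The mean of Got1 rose from 51.7 ± 15.6 to 88.2 ± 13.8 CPM (SD, n = 4 each), or by a log2 fold change of 0.77 ± 0.21 (SE, edgeR adjusted p = 0.0481). This call was near the threshold: it was lost under 8 of 18 alternatives. Adjusted p was 0.128 and 0.0880 without control replicates 2 and 3, and 0.154, 0.0791, 0.0960 and 0.146 without knockout replicates 1 to 4. It was 0.126 against a fold threshold of 1.2 and 0.0531 without robust estimation. The log2 fold change was above 0 in each of these fits, from 0.59 to 0.91 over the 18.

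Got2 gave 251, 322, 279 and 292 CPM in control libraries and 333, 366, 281 and 357 CPM in knockout libraries. The groups overlapped through knockout replicate 3 and control replicate 2. Its log2 fold change of 0.23 ± 0.14 did not pass (edgeR adjusted p = 0.435), nor did it under any of the 18 alternatives. The change of Got1 was not shown to differ from that of Got2. The log2 ratio of Got1 to Got2 was -2.52 ± 0.41 in the control and -1.93 ± 0.27 in the knockout (SD, n = 4 each), a difference of 0.59 with a 95% interval of -0.20 to 1.3001 (exact two-sided permutation p = 0.0857, adjusted p = 0.143 over the 5 pairs).

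Glul and Glud1 act on glutamate itself. Glul, glutamine synthetase, lies on chromosome 1 from 153899944 to 153909723 (plus strand), with 7 exons. It gave 99, 47, 86 and 116 counts in control replicates 1 to 4 and 51, 28, 45 and 51 counts in knockout replicates 1 to 4. In CPM this was 13.9, 7.57, 11.98 and 11.3 in the control and 6.85, 4.03, 5.90 and 6.13 in the knockout, so that every knockout library was below every control library. The group means were 11.2 ± 2.65 and 5.73 ± 1.2 CPM (SD, n = 4 each), and the log2 fold change was -0.96 ± 0.30 (SE). This missed the threshold (edgeR adjusted p = 0.0754, unadjusted p = 0.00545), and over the 18 alternatives adjusted p ran from 0.0266 with DESeq2 to 0.245 without knockout replicate 2, with limma-voom at 0.0485. Of the 8 genes, Glul was the only one with a log2 fold change below 0 in the edgeR fit over all libraries.

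The ratio of Glul to Glud1 sets both glutamate enzymes side by side within a library. Control replicate 1 had the highest log2 ratio at -1.85, the other control libraries ran from -4.37 to -3.58, and the knockout libraries from -5.20 to -4.52. The knockout ratios thus all lay below the control ratios. The difference was -1.33 with a 95% interval of -3.34 to -0.15 (exact two-sided permutation p = 0.0286, the smallest that 4 against 4 allows). It did not pass after adjustment (adjusted p = 0.0714 over the 5 pairs). Over 5 pairs, that smallest p can pass only where enough other pairs reach it too. The adjusted value therefore cannot decide on this pair by itself. Without control replicate 1 the difference was -0.81.

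Glud1, mitochondrial glutamate dehydrogenase, lies on chromosome 14 from 34310727 to 34345265 (plus strand), with 13 exons. The control libraries spanned a wide range, with 50.3, 111, 144 and 234 CPM in replicates 1 to 4. The knockout libraries lay within that range, with 162, 150, 136 and 162 CPM. The highest control library was 4.66 times the lowest, against 1.19 times in the knockout. The coefficient of variation was 57.0% in the control, higher than in 87.6% of the genes tested, and 8.02% in the knockout, where 12.5% of genes were lower. The log2 fold change of 0.18 ± 0.33 did not pass (edgeR adjusted p = 0.842). It was -0.0935 without control replicate 1 and 0.58 without control replicate 4 (adjusted p = 0.848 and 0.156), so no direction can be given for this gene.

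**Figure D2:**
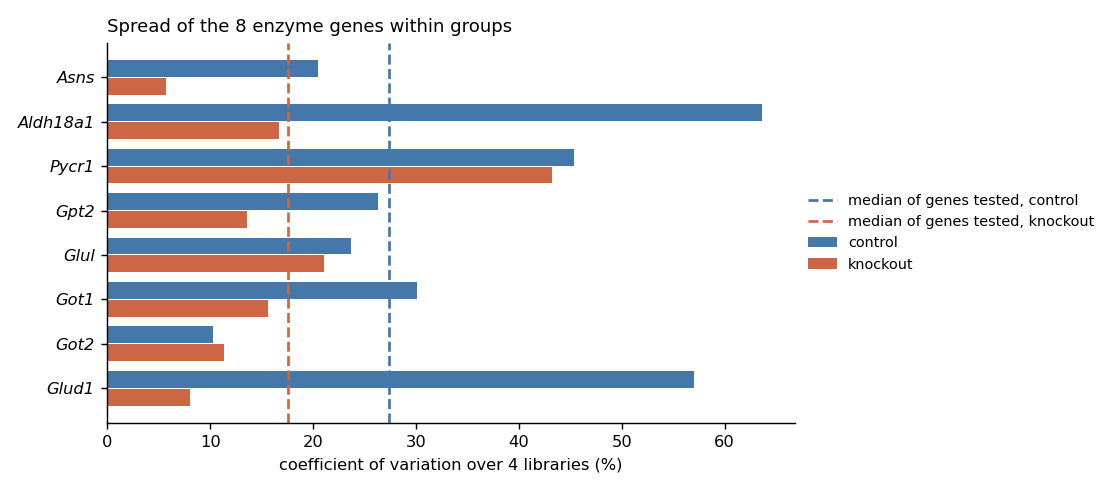
Coefficient of variation (SD divided by mean, in %) of the 8 enzyme genes over the 4 control libraries (blue) and the 4 knockout libraries (orange). The dashed lines mark the medians over all genes tested, 27.4% in the control and 17.5% in the knockout. Aldh18a1 and Glud1 reach 63.6% and 57.0% in the control and 16.7% and 8.02% in the knockout.

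**Figure D3:**
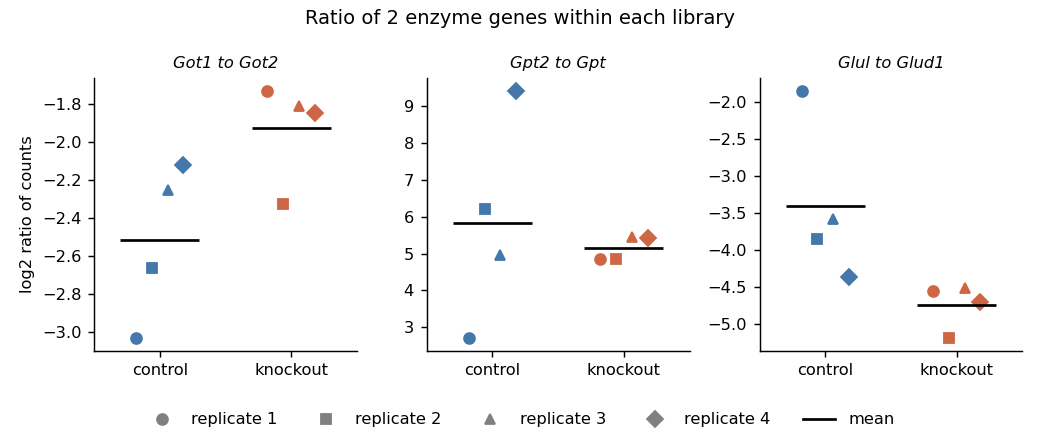
Log2 ratio of the counts of 2 enzyme genes within each library, 0.5 added to each count, with 1 panel for each of 3 pairs and the group means as lines. The knockout lies wholly below the control for Glul to Glud1, and the groups overlap for Got1 to Got2 and Gpt2 to Gpt.

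The proline enzymes did not pass the test. Aldh18a1 encodes the mitochondrial enzyme that turns glutamate into the proline precursor pyrroline-5-carboxylate, and lies on chromosome 19 from 40550257 to 40588463 on the minus strand, with 19 exons. It was at 26.3, 8.22, 10.0 and 9.35 CPM in control replicates 1 to 4 and at 13.6, 19.7, 19.8 and 19.2 CPM in knockout replicates 1 to 4. Control replicate 1 was above every other library, and the other 3 control libraries were below every knockout library. The log2 fold change was 0.43 ± 0.34 (SE, edgeR adjusted p = 0.563). Without control replicate 1 it was 0.97 (adjusted p = 0.0190), without control replicates 1 and 4 it was 0.99 (0.0239), and with limma-voom and sample weights 0.82 (0.0538). Under the other 15 alternatives it did not pass, and leaving out any other library gave 0.26 to 0.54.

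Pycr1 encodes a mitochondrial pyrroline-5-carboxylate reductase, which completes proline synthesis. It lies on chromosome 11 from 120635712 to 120643769 on the minus strand, with 8 exons. Its counts were low, 64, 20, 53 and 43 in the control and 43, 53, 48 and 113 in the knockout. The corresponding levels of 8.99, 3.22, 7.38 and 4.19 CPM and of 5.77, 7.62, 6.30 and 13.6 CPM overlapped, with knockout replicate 4 above the rest. The log2 fold change of 0.49 ± 0.39 did not pass (edgeR adjusted p = 0.568) and was 0.14 without knockout replicate 4. Prodh, the first enzyme of proline breakdown, gave 0 to 7 counts per library and was not tested.

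**Figure D4:**
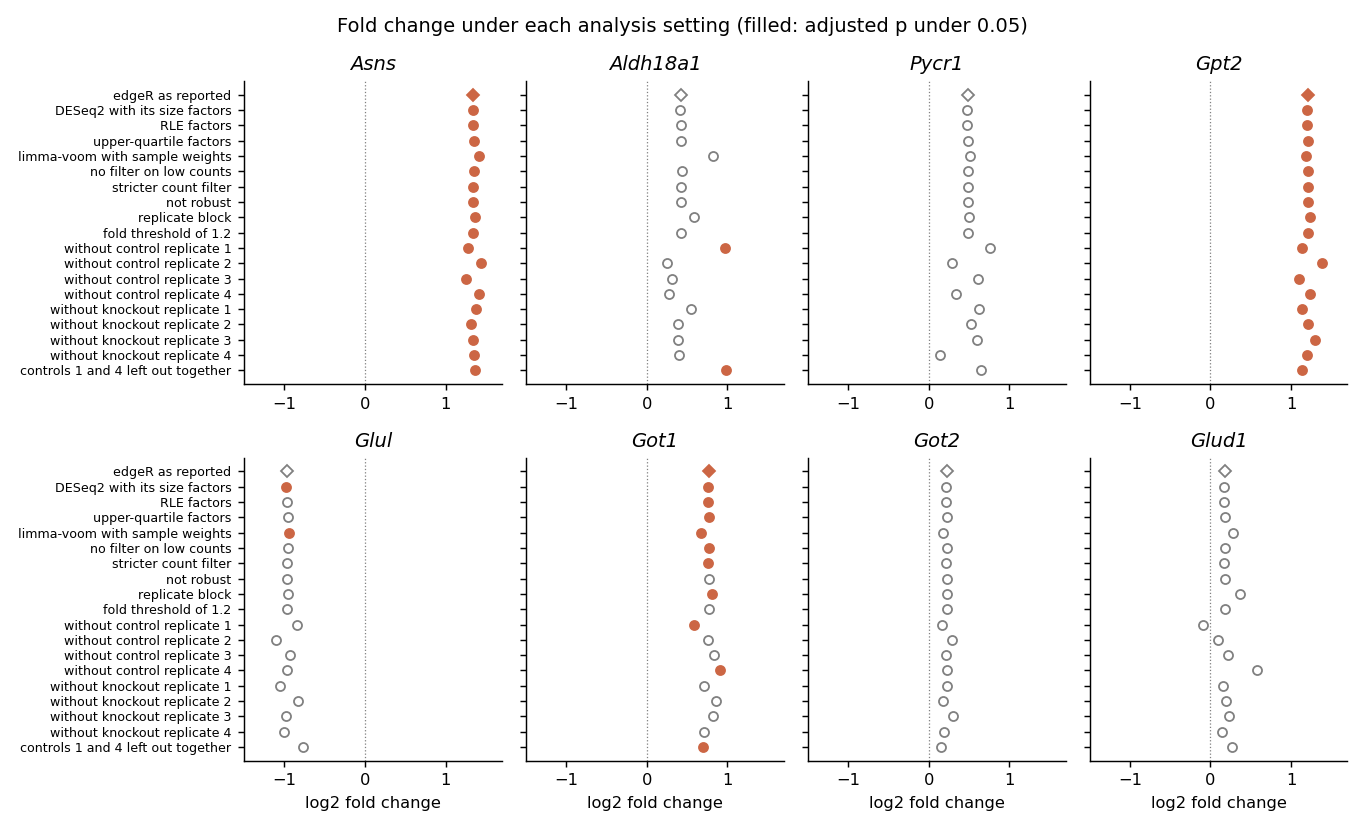
Log2 fold change (knockout minus control) of each of the 8 genes as reported (diamond) and under each of 18 alternatives (circles), filled where the adjusted p was under 0.05. Asns and Gpt2 are filled throughout, Got1 in the reported fit and 10 alternatives, and Aldh18a1 and Glul in 2 each.

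Position and read assignment were checked for the 8 genes. Aldh18a1 and Got1 lie 2.91 Mb apart on chromosome 19 and Gpt2 and Got2 10.3 Mb apart on chromosome 8. Annotated exons of Glul share 93 bases with Mir8114 on the same strand and 116 bases with Teddm2 on the opposite strand, and those of Got2 share 434 bases with Gm45760 on the opposite strand. Since no source used here gives the strand setting of the counting, reads over such bases are uncertain. In the last 400 bases of the longest coding transcript, where 3′ tags fall, no run of 50 bases was shared with a transcript of another gene for 7 of the 8 genes. For Pycr1 at most 0.570% of such runs were shared with any of 15 other genes.

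Profiles most like those of the called genes were found by the root mean square difference of log2 CPM over the 8 libraries, each gene centred on its own mean, among 8135 other genes. Asns was nearest to Phf10, Hax1 and Cep162, at 0.138, 0.150 and 0.165, and Gpt2 came next at 0.183. Gpt2 was nearest to Cd40, Phf10 and Tsr3, at 0.122, 0.144 and 0.179, and Asns came next. Got1 was nearest to Rnf11, Klhl21 and Tmem203, at 0.129, 0.139 and 0.142, none of which passed the test. Got1 was 0.438 from Asns, 0.399 from Gpt2 and 0.364 from Glud1. The distance takes in the difference between the groups, so that genes with like log2 fold changes, such as Asns and Gpt2, lie near each other by construction.

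Most neighbouring enzymes did not pass. The 5 lists held proline, ornithine and arginine enzymes, glutamine and glutamate enzymes, aspartate, asparagine and other aminotransferase enzymes, mitochondrial carriers with the malate-aspartate shuttle, and 2-oxoglutarate enzymes. Of their 45 tested genes 2 rose and none fell (edgeR), with a median log2 fold change of 0.03. Over all genes tested, 2.54% were called higher and 3.19% lower. All knockout libraries lay above all control libraries for 3 of the 45 and below them for 4. Such arrangements were found in 6.45% and 6.64% of all genes tested. At an unadjusted p under 0.05, 4 of the 45 were higher and 7 lower, where 8.3% and 9.72% of all genes tested were. DESeq2 and limma-voom each called 3 higher (with Idh3b) and 1 lower (Adssl1). Of all genes, DESeq2 called 368 of 9517 higher and 5.15% lower, and limma-voom 471 of 9904 higher and 5.89% lower. Both genes called by edgeR encode aminotransferases that, like those above, use glutamate as partner, and their list had 11 tested members. Bcat1, the cytosolic branched-chain aminotransferase, was at 19.7, 17.7, 14.8 and 16.4 CPM in control libraries and 40.0, 41.7, 42.0 and 40.5 CPM in knockout libraries. All 4 knockout libraries were above every control library, and the log2 fold change was 1.26 ± 0.18 (edgeR adjusted p = 0.000494, called under all 18 alternatives). Psat1, which makes phosphoserine in serine synthesis with the amino group of glutamate, was at 190, 177, 152 and 163 CPM in control libraries and 293, 266, 219 and 224 CPM in knockout libraries. Its log2 fold change was 0.55 ± 0.14 (adjusted p = 0.0348). The call was lost without control replicate 2 or 3 (adjusted p = 0.0829 and 0.121) or knockout replicate 1, 2 or 3 (0.132, 0.137 and 0.0557), and against a fold threshold of 1.2 (0.146).

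In the other 4 of these lists no gene passed. Odc1, ornithine decarboxylase, had the smallest p of the 7 tested proline, ornithine and arginine enzymes, at 0.56 ± 0.25 in log2 fold change (edgeR adjusted p = 0.256, and 0.0371 without control replicate 4). Ctps2, a glutamine-using CTP synthase, had that of 11 glutamine and glutamate enzymes, with -0.71 ± 0.25 (0.125). Mdh1, the cytosolic malate dehydrogenase of the shuttle, had that of 8 carriers and shuttle enzymes, with -0.36 ± 0.16 (0.238). Idh3b, a subunit of isocitrate dehydrogenase, had that of 8 enzymes of 2-oxoglutarate, with 0.78 ± 0.24 (0.0741, and 0.0275 without control replicate 4). Leaving out 1 library also brought in Idh1 at -1.38 (adjusted p = 0.00651 without control replicate 1) and, without control replicate 4, Asrgl1 at -0.78 (0.0354) and Adssl1 at -1.84 (0.0218), 3 genes chosen after their values were seen. Asrgl1 encodes an asparaginase, which breaks asparagine down, and Adssl1 an adenylosuccinate synthase, which consumes aspartate.

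**Figure D5:**
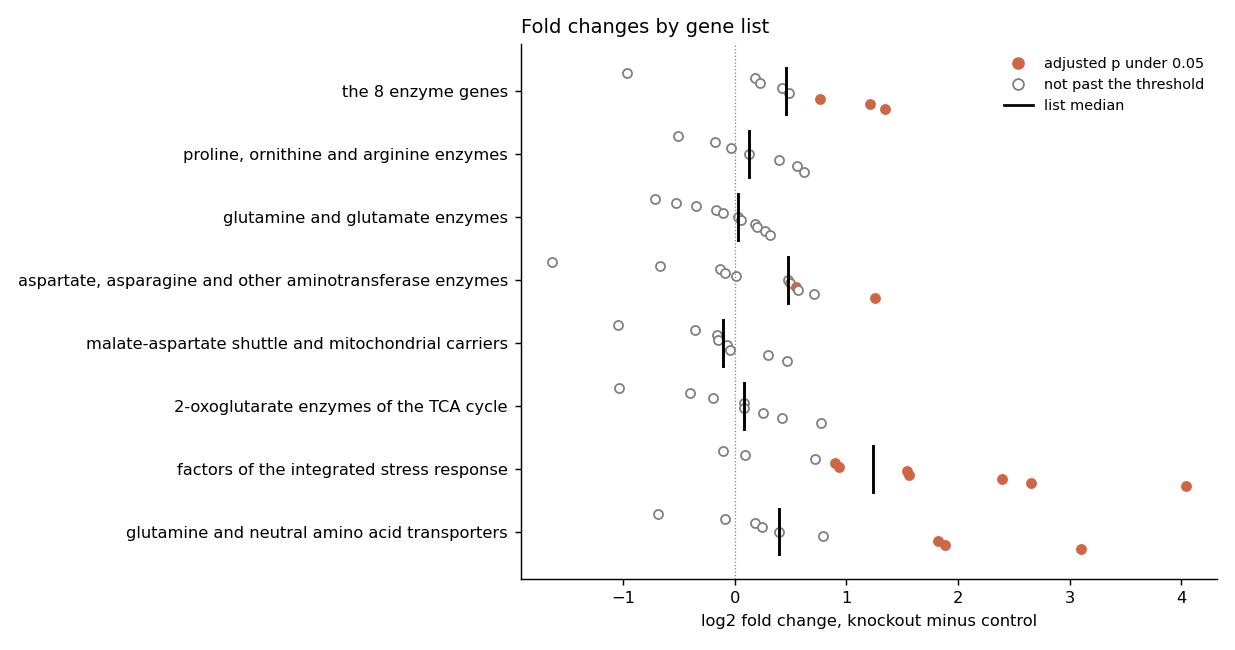
Log2 fold change (knockout minus control) of every tested gene of the 8 enzyme genes and of the 7 other lists, 1 circle per gene, filled where the edgeR adjusted p was under 0.05, with the list median as a vertical line. Filled circles lie to the right in all 4 lists that have any, and the medians are 0.46 for the 8 enzyme genes and 1.24 for the stress response factors.

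Most of the listed integrated stress response factors, of the programme run by ATF4, and some of the listed carriers of amino acids at the plasma membrane were higher in the knockout. Of 10 tested factors 7 rose and none fell (edgeR), with a median log2 fold change of 1.24. Over all genes tested, 2.54% were called higher and 3.19% lower. The listed factors and carriers were chosen with earlier results of these data known. Nupr1, Atf5, Trib3, Ddit3, Cebpg and Ppp1r15a had log2 fold changes of 4.04, 2.40, 2.66, 1.54, 0.90 and 0.93. Cebpb, the remaining called factor, had 1.56 (edgeR adjusted p = 0.00956), and its call was lost without knockout replicate 2 (0.0533). Eif2ak3 (0.09) and Eif2ak4 (-0.10), which encode the kinases PERK and GCN2, did not pass. Atf4 mRNA itself was at 2268, 1462, 1279 and 849 CPM in control libraries and 2295, 2697, 2439 and 2188 CPM in knockout libraries. Control replicate 1 lay within the knockout range, and the log2 fold change of 0.72 ± 0.22 did not pass (edgeR adjusted p = 0.0787). Without control replicate 1 it was 1.01 (adjusted p = 0.000382), and DESeq2 and limma-voom called Atf4 higher with all libraries. DESeq2 called 368 of 9517 genes higher and limma-voom 471 of 9904. Beside the edgeR shares of 2.54% and 3.19% over all genes, 3 of 9 tested transporters rose and none fell, with a median of 0.40. These were Slc7a11 (3.10), the cystine and glutamate exchanger, Slc7a5 (1.89), a carrier of large neutral amino acids, and their shared partner Slc3a2 (1.82). Slc7a5 lost its call without a filter on low counts (adjusted p = 0.113). The other 6 did not pass. Slc1a4, a carrier of alanine, serine and other small neutral amino acids, came nearest, with a log2 fold change of 0.79 ± 0.23, no overlap between the groups and an edgeR adjusted p of 0.0550. It passed with DESeq2 (0.0198), with limma-voom (0.0109), with the stricter count filter (0.0472), when control replicate 1 was left out (0.0134) and when control replicate 4 was left out with it (0.0218). The remaining carriers were Slc1a5 (-0.08), Slc36a1 (0.18), Slc38a1 (0.40), Slc38a2 (0.24) and Slc43a2 (-0.68).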

How the data were processed

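RNA of sorted plasmablasts was made into QuantSeq 3′ mRNA-Seq (FWD) libraries from 500 ng of total RNA, per the labels' protocols. The deposited files hold raw read counts per gene symbol, not normalized. The submitters' processing notes name TopHat2 2.1.1, BWA 0.7.12, HTSeq 0.6.1, SAMtools 1.3.1 and mm10. Their roles, the strand setting and the annotation were not stated in the sources used here. A 3′ tag counts transcript ends, so counts were not divided by length, and levels were not ranked between genes. Counts may include PCR copies, and floors cover counting error only.

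Genes were filtered with filterByExpr (minimum count 10, minimum total 15), scaled with TMM factors and tested with edgeR 4.0.16 (R 4.3.3) by robust quasi-likelihood F-tests on all 8 libraries, group as the only term, two-sided, with Benjamini-Hochberg adjustment over 9904 genes and a threshold of 0.05. SE is |log2 fold change| over the root of F. Log2 CPM used a prior count of 2. Ratios of 2 genes within a library were tested by exact permutation of the 8 libraries, with intervals from the shifts that the test did not reject. Of 6 pairs, Aldh18a1 to Prodh was left out because Prodh did not pass the filter. Of the other 5, over which p-values were adjusted, 3 are reported here. Alternatives were DESeq2 1.42.0, limma-voom (limma 3.58.1) with sample weights, other scalings and filters (none, or 50 counts in 4 libraries), a fold threshold of 1.2, a replicate block, no robust estimation and leaving out libraries. The edgeR fit and the permutation test were tried on simulated data with known differences, drawn without outlying libraries. The rule for named genes gave the 8 members, Jagn1, Atf4, up to 6 called genes of each list or else the 1 with the smallest p, and the 3 nearest profiles of each called member whose average log2 CPM is 2 or more. Other genes in the text are markers, partners in a ratio or pair, or genes chosen after their values were seen. The members and lists were chosen with earlier results of these data known. P-values weigh the difference between the groups against the spread between these libraries.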

Additional observations from a re-analysis of the deposited data

Results flagged for a closer look

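In 4 of 56 groups of 4 libraries checked over the named genes and the ratios, 1 library's gap to its nearest neighbour, as a share of the group's range, was above Dixon's 95% critical value, which chance gives in about 1 group in 20. Aldh18a1 met this in both groups: control replicate 1 stood at 26.3 CPM, above the other control libraries, and knockout replicate 1 at 13.6 CPM, below the other knockout libraries. Odc1 stood at 430 CPM in knockout replicate 4, above the other knockout libraries. Nupr1 stood at 105 CPM in knockout replicate 2, above the other knockout libraries.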

How the results depend on the processing

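Of the 8 genes, Asns and Gpt2 kept their direction and call under all 18 alternatives. Got1, Aldh18a1, Pycr1, Got2 and Glul (log2 fold change -1.11 to -0.77) kept their direction, and Glud1 did not. Pycr1, Got2 and Glud1 passed under none. DESeq2 called 490 of all genes lower and limma-voom 471 higher and 583 lower, each with 1 of the 8 genes (Glul) lower, against 252 higher, 316 lower and 0 of the 8 lower as reported. The fold threshold of 1.2 gave 161 higher and 168 lower, and leaving out control replicates 1 and 4 together gave 438 higher. Leaving out 1 library gave 137 to 411 genes higher, 133 to 481 lower, 2 to 4 of the 8 higher, 1 to 2 aspartate, asparagine and other aminotransferase enzymes higher and 0 to 2 lower, 0 to 1 proline, ornithine and arginine enzymes higher, 0 to 1 enzymes of 2-oxoglutarate higher and 0 to 1 lower, 6 to 8 stress response factors higher and 3 to 4 transporters higher. Leaving out 1 library also gave log2 fold changes of Glud1 from -0.0935 (control replicate 1) to 0.58 (control replicate 4) and log2 differences of the ratio of Gpt2 to Gpt from -1.73 (control replicate 1) to 0.51 (control replicate 4). The cause of these changes was not tested. Same-numbered libraries share only a number: the correlation of their deviations across genes was -0.003 to 0.066, and 1 of 4 control libraries matched its own number best. With a replicate block 243 genes were higher and 266 lower, with 3 of the 8 genes higher and 0 lower. With the stricter motif 2 promoters matched in place of 3. Low counts limit Pycr1 (20 to 113 per library), Glul (28 to 116) and Gpt (0 to 28).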

Other observations

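The letters TGATGNAA were found in 8.58% of the 268 promoter windows of genes called higher and 2.67% of the 300 windows of genes called lower, beside 2.35% of the 9694 windows of all genes tested. TTGCATCA was found in 4.48%, 1.33% and 0.681% of the same windows.

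Gad2, the glutamate decarboxylase best known from neurons that make GABA, was measured at 122, 76.2, 67.4 and 50.2 CPM in control replicates 1 to 4 and 88.5, 77.8, 71.7 and 85.4 CPM in knockout replicates 1 to 4, a gene chosen after its values were seen. Its log2 fold change was 0.03 ± 0.22 (edgeR adjusted p = 0.961). Gad1, which encodes the other decarboxylase, and Abat, which breaks GABA down, gave at most 1 count in any library. The arginase genes Arg1 and Arg2 and the urea cycle genes Otc, Cps1 and Nags were at 0 counts in all libraries.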
